A study of Homo sapiens with 12 samples.

Results

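The replication-dependent histone genes were taken as every gene of the count table annotated as protein-coding whose symbol begins with HIST1H, HIST2H, HIST3H or HIST4H. That gave 71 of 58735 genes, and 21 of the 71 had 10 or more counts in at least 3 of the 12 libraries and are called expressed here. RNA had been sequenced from MDA-MB-231, an established human breast cancer line of basal-like type, carrying a guide RNA against UFM1 (group sgUFM1), a guide against UFL1 (sgUFL1) or a control guide. The control libraries are labelled as 2 groups, sgCtrl_to_sgUFL1 and sgCtrl_to_sgUFM1, so that the series has 4 groups of 3 libraries. UFM1 is a ubiquitin-like modifier of proteins, and UFL1 is the enzyme that joins it to its targets. The labels give the molecule as total RNA and do not say whether poly(A) RNA was selected, whether cells were clones or pools, or when after guide delivery they were collected.

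These genes make the core histones H2A, H2B, H3 and H4, around which DNA is wound, and the linker histone H1, which sits where DNA enters and leaves the nucleosome. Most of them lie in clusters, have no introns and are transcribed in S phase, when newly made DNA has to be packed. Their mRNAs typically end not in a poly(A) tail but in a short stem-loop that is bound by SLBP, the stem-loop binding protein, and is needed for processing, translation and rapid decay when replication stops. A subset of them can also be read through to a downstream polyadenylation site and give polyadenylated mRNA.

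The 2 deposited tables did not name the groups alike. Columns of 6 libraries carried the same name in both tables, and for the other 6 the names sgUFL1 and sgCtrl_to_sgUFM1 were exchanged. The 3 libraries named sgUFL1 in the count table, which the FPKM table names sgCtrl_to_sgUFM1, are called set 1. The 3 libraries named sgCtrl_to_sgUFM1 in the count table, which the FPKM table names sgUFL1, are called set 2. UFL1 mRNA was at 16.7, 19.3 and 18.0 CPM (counts per 1000000, with library totals scaled by the trimmed mean of M values, TMM) in set 1 and at 12.7, 11.4 and 13.2 CPM in set 2, against 19.8 to 30.3 CPM in sgCtrl_to_sgUFL1 and 20.5 to 25 CPM in sgUFM1. UFM1 mRNA was lowest in sgUFM1, at 37.1 to 39.6 CPM against 49.4 to 71.2 CPM in the other 9 libraries. Library totals ran from 15342793 to 18033331 counts. The mean GC content of the counted genes, weighted by their counts, spanned 48.3% to 49.4% in sgCtrl_to_sgUFL1. It was higher in the other groups, from 50.3% to 50.5% for set 1, from 50.4% to 50.9% for set 2 and from 49.8% to 50.3% for sgUFM1. The summed level of 5 markers listed as high in this line (VIM, CD44, EGFR, AXL, SPARC) was 2398 to 3131 CPM. SPARC was low against its listing, at 0.247 to 1.29 CPM, so the sum is that of the others. The sum of 10 leukocyte, endothelial and fibroblast markers was 11.1 to 18.4 CPM, with CD3E at 0. That of 6 luminal and epithelial markers low in this line was 50.1 to 86.7 CPM, mostly ERBB2. The labels do not say that replicates were separate cultures. A p-value here sets a difference between groups only against the scatter of libraries within groups, and that scatter may be technical.

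The feature that sets these mRNAs apart can be read from the annotation of part of the family. In the GENCODE 29 transcripts, 29 of the 71 members had at least 100 annotated bases after the stop codon, and 27 of those 29 held the histone stem-loop consensus of 16 bases there. Among 18725 other protein-coding genes with such a window, 1 (0.00534%) held it, the histone variant gene H2AFX. With shorter windows included, 32 members held a match, 13 of them expressed. Those of 6 members whose levels are described below are shown, 5′ to 3′ as DNA, with the 16 bases of the match in capitals and up to 5 bases on either side.
HIST1H2AC: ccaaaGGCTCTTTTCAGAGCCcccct
HIST1H2BD: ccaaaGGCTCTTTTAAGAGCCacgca
HIST1H4I: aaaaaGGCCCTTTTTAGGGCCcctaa
HIST1H4H: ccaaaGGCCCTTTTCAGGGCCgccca
HIST1H3H: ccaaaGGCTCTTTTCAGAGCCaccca
HIST1H2AG: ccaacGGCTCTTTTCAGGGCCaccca
In these 6 the match began at base 32 to base 51 after the stop codon. A match is a description of the letters and does not show that a transcript used that end. The gene models of HIST1H2BK and HIST1H1C, the most abundant members, end at the stop codon, so reads from their stem-loop or from beyond it were not counted for them. Of the 21 expressed members 6 had a model ending at the stop codon and 15 a model reaching beyond it. Of the 50 others 27 ended at the stop codon and 23 reached beyond it.

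Promoter sequences of RefSeq (GRCh38.p14) were found for 61 of the 71 members. In the 250 bases before the start, CCAAT stood on either strand in 51 members (83.6%) against 33% of 27305 promoters, TATAAA in 41 (67.2%) against 11.1%, and ATTTGCAT, the octamer, in 21 (34.4%) against 1.66%. The 3 strings were searched one by one, and matches that share bases count for each. The octamer stood in 11 of 16 H2A and 9 of 13 H2B promoters, in 1 of 13 H3 promoters and in none of the 6 H1 and 13 H4 promoters. That H3 promoter, of HIST1H3D, is the same stretch as the promoter of the H2A gene HIST1H2AD, ending at chr6:26199294-26199413. This stretch was counted for both genes, so it is not a separate H3 case. Windows of H2A and H2B genes that stand head to head can overlap too, with starts 219 to 331 bases apart in 11 pairs. A match in the shared bases was counted for both partners, so the H2A and H2B promoters are not all separate cases. CCAAT stood in all H1, H2A, H2B and H3 promoters matched but in 3 of 13 H4 promoters. The last 120 bases before the start are shown for 5 members on which the results below turn, in the direction of transcription, with the letters of each match, on either strand, in capitals.
HIST1H2BK, chr6:27146859-27146978, minus strand: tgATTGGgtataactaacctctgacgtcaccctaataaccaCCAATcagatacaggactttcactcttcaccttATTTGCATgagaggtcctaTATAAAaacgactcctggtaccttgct
HIST1H2BJ, chr6:27132796-27132915, minus strand: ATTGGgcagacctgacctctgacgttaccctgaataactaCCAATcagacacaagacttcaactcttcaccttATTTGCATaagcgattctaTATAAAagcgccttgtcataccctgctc
HIST1H2BO, chr6:27893305-27893424, plus strand: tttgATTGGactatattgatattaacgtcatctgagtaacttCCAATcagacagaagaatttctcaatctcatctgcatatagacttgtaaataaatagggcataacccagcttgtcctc
HIST1H1C, chr6:26056471-26056590, minus strand: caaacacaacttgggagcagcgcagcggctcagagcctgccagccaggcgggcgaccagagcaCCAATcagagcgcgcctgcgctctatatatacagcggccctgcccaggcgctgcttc
HIST1H4I, chr6:27139162-27139281, plus strand: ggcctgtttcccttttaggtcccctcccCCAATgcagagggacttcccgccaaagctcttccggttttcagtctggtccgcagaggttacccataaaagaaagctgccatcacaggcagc
HIST1H2BK and HIST1H2BJ held all 3 strings in these bases. For HIST1H2BO the octamer and TATAAA stood further upstream, outside the bases shown. Both strings stand there in the last 120 bases before the start of its partner HIST1H2AM, chr6:27893186-27893305 on the minus strand. HIST1H1C and HIST1H4I held CCAAT only. The stretch shown for HIST1H4I lies inside its counted gene model, chr6:27138588-27139881, because the RefSeq start lies downstream of the start of that model.

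Of the 71 members 55 lie in the HIST1 cluster on chromosome 6, 12 in HIST2 and 3 in HIST3 on chromosome 1, and 1 is HIST4H4 on chromosome 12. Expressed members numbered 16 in HIST1, 4 in HIST2, 0 in HIST3 and 1 in HIST4. By histone type, 2 of 6 H1 genes, 3 of 17 H2A genes, 9 of 18 H2B genes, 3 of 15 H3 genes and 4 of 15 H4 genes were expressed. A further 25 members had some counts, at most 75 in all 12 libraries together, and 25 had none. For those, a count of 0 over 195468469 counts allows a level of up to 0.0153 CPM, counting error only. Closest inside the expression rule was HIST2H4B, with 79 counts and 10 or more in 3 libraries, and closest outside were HIST1H2AI, with 65 counts and 10 or more in 2, and HIST1H4C, with 75 counts and 10 or more in 1.

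**Figure D1:**
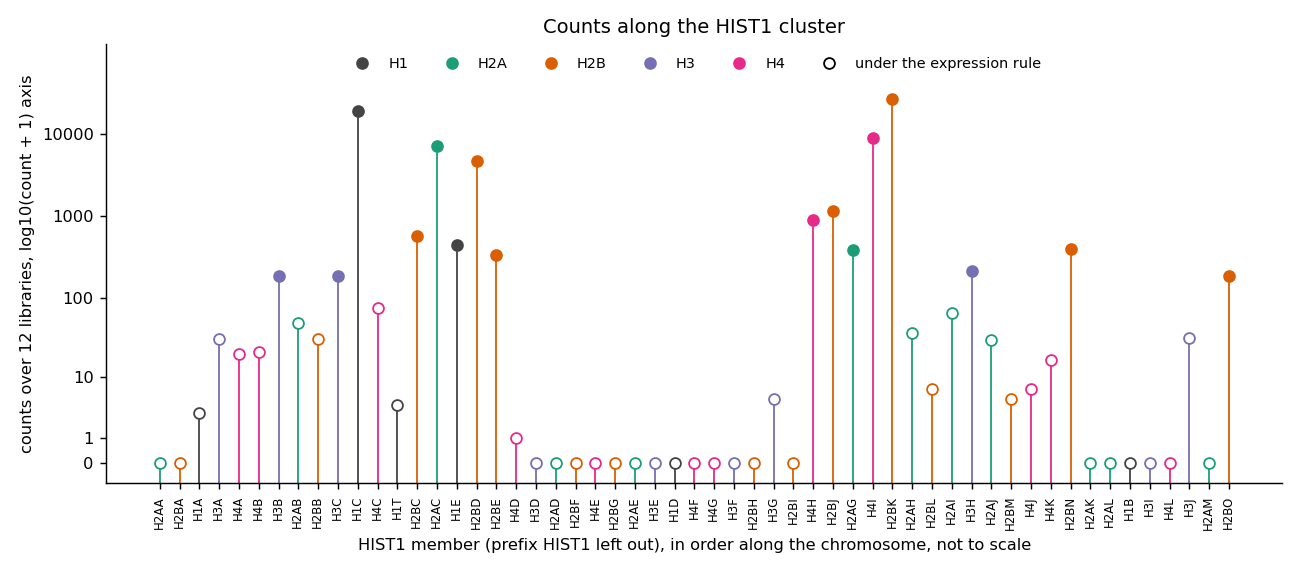
Counts summed over the 12 libraries for each of the 55 HIST1 members in their order along chromosome 6 (horizontal axis, not to scale), on a log10(count + 1) axis, coloured by histone type, with open circles for members under the expression rule. Expressed members stand on both sides of a run of 12 neighbouring members at 0.

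Along the HIST1 cluster the counts were concentrated in a few genes on both sides of a stretch without counts. Between chr6:26195554-26253710, 58.2 kb, all 17 annotated genes had 0 counts in all 12 libraries. They are 12 members (HIST1H3D, HIST1H2AD, HIST1H2BF, HIST1H4E, HIST1H2BG, HIST1H2AE, HIST1H3E, HIST1H1D, HIST1H4F, HIST1H4G, HIST1H3F and HIST1H2BH) and 5 other genes, mostly pseudogenes. The nearest genes with counts were HIST1H4D before it, with 1 count, and HIST1H3G after it, with 5. HIST1H2BE, expressed, lies just before HIST1H4D in the order of the members. The same exons can be claimed by overlapping annotations: HIST1H3D and HIST1H2AD overlap the gene model AL031777.3, and HIST1H2AK, HIST1H2AL and HIST1H2AM, all at 0, overlap HIST1H2BN or HIST1H3J. The sources used here do not give how reads in overlapping genes or with several matches were counted, so a 0 is a 0 of the deposited counts.

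H2A and H2B genes often stand head to head around a shared promoter. In 11 such pairs, with 219 to 331 bases between the starts, both genes were expressed in 3, only the H2B gene in 2 and neither in 6. The partners could differ widely in counts. HIST1H2BK had 26789 counts over all libraries and its partner HIST1H2AH 37. HIST1H2AC had 7209 and HIST1H2BC 571, whereas HIST1H2BJ had 1168 and HIST1H2AG 385. On chromosome 1 HIST2H2BE had 810 and HIST2H2AC 231.

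Counts of the family were dominated by HIST1H2BK, HIST1H1C, HIST1H4I, HIST1H2AC and HIST1H2BD, which together took 88.2% to 92.6% of the members' CPM in every library. H2B genes took 41.3% to 53% of the family level, H1 genes 22.6% to 30.3%, H4 genes 11.6% to 21.7%, H2A genes 9.94% to 12.7% and H3 genes 0.668% to 1.41%. The summed CPM of all 71 members was 253, 463 and 239 in sgCtrl_to_sgUFL1, 267, 466 and 476 in set 1, 439, 475 and 504 in set 2, and 313, 322 and 325 in sgUFM1. The second library of sgCtrl_to_sgUFL1 and the first of set 1 thus stood away from the other 2 of their group, while set 2 and sgUFM1 were narrow and did not overlap. In bulk RNA, fewer cells in S phase and less histone mRNA per cell cannot be told apart.

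**Figure D2:**
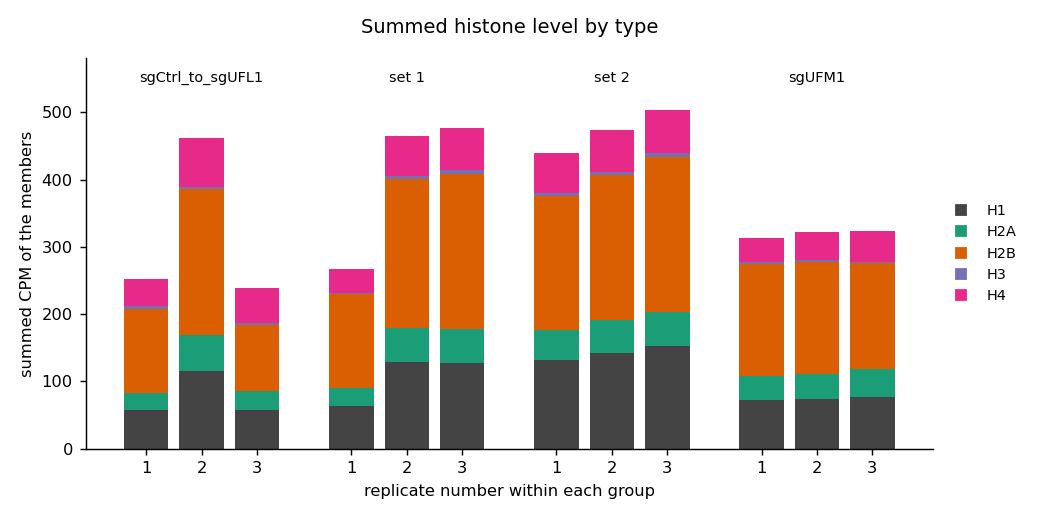
Summed CPM of the 71 members in each library (bars, by replicate number within each group), split by histone type in colour. The 3 sgUFM1 libraries reach 313 to 325 CPM and those of set 2 reach 439 to 504, while sgCtrl_to_sgUFL1 and set 1 each hold 1 library far from the other 2.

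Per kilobase of gene model, the order of the mean level over the 12 libraries was HIST1H2BK (359 CPM per kb), HIST1H1C (152), HIST1H4I (35.8), HIST1H2BD (27.7), HIST1H2AC (22.1) and HIST1H2BJ (6.28). The per-kilobase ranges over libraries were 182 to 466 for HIST1H2BK and 85.5 to 234 for HIST1H1C, so the 2 overlap. HIST1H4I (24.1 to 49.4), HIST1H2BD (18.7 to 39.3) and HIST1H2AC (13.3 to 28.9) overlap one another and lie below both, and HIST1H2BJ (2.61 to 9.14) lies below all 5. The remaining 15 expressed members had means of 0.212 to 3.53 CPM per kb. The models of HIST1H2BK and HIST1H1C are short because they stop at the stop codon, which raises a level per kilobase relative to genes with long annotated ends. In HIST1H2BK, 50.5% of the 75-base stretches of the model also occur in other histone-named genes, so its count depends on how reads with several matches were treated.

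HIST1H2BK (ENSG00000197903, chr6:27146418-27146798, minus strand), an H2B gene, was at 94.9, 166 and 69.3 CPM in sgCtrl_to_sgUFL1, 106, 161 and 175 in set 1, 152, 172 and 178 in set 2, and 126, 124 and 119 in sgUFM1. All sgUFM1 libraries were below all of set 2, and they lay within the range of sgCtrl_to_sgUFL1 and of set 1. HIST1H1C (ENSG00000187837, chr6:26055787-26056428, minus strand), which encodes the linker histone also called H1.2, was at 54.9, 114 and 56.4 CPM in sgCtrl_to_sgUFL1, 60.8, 125 and 124 in set 1, 130, 142 and 150 in set 2, and 68.8, 71.0 and 75 in sgUFM1. Here 2 bands appear, one at 54.9 to 75 CPM with all sgUFM1 libraries and 3 others, and one at 114 to 150 CPM with all of set 2 and 3 others.

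HIST1H4I (ENSG00000276180, chr6:27138588-27139881, plus strand), an H4 gene, was at 36.4, 63.9 and 46.3 CPM in sgCtrl_to_sgUFL1, 31.2, 50.9 and 53.0 in set 1, 52.1, 56.0 and 57.7 in set 2, and 32, 35.4 and 41.3 in sgUFM1. Its single highest library was the second of sgCtrl_to_sgUFL1. HIST1H2AC (ENSG00000180573, chr6:26124145-26139116, plus strand), the only H2A gene above 4 CPM, was at 22.2, 48.2 and 24.6 CPM in sgCtrl_to_sgUFL1, 22.3, 45.6 and 45.0 in set 1, 41.0, 44.5 and 45.7 in set 2, and 31.7, 34.6 and 37.1 in sgUFM1. HIST1H2BD (ENSG00000158373, chr6:26158146-26171349, plus strand) was at 16.6, 29.5 and 16.3, at 18.8, 34.2 and 32.6, at 26.0, 25.4 and 30.4, and at 21.5, 19.4 and 19.2 CPM in the same order of groups. For all 5 genes the sgUFM1 libraries lay below every library of set 2. The share of all genes separated in this way is not given here.

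**Figure D3:**
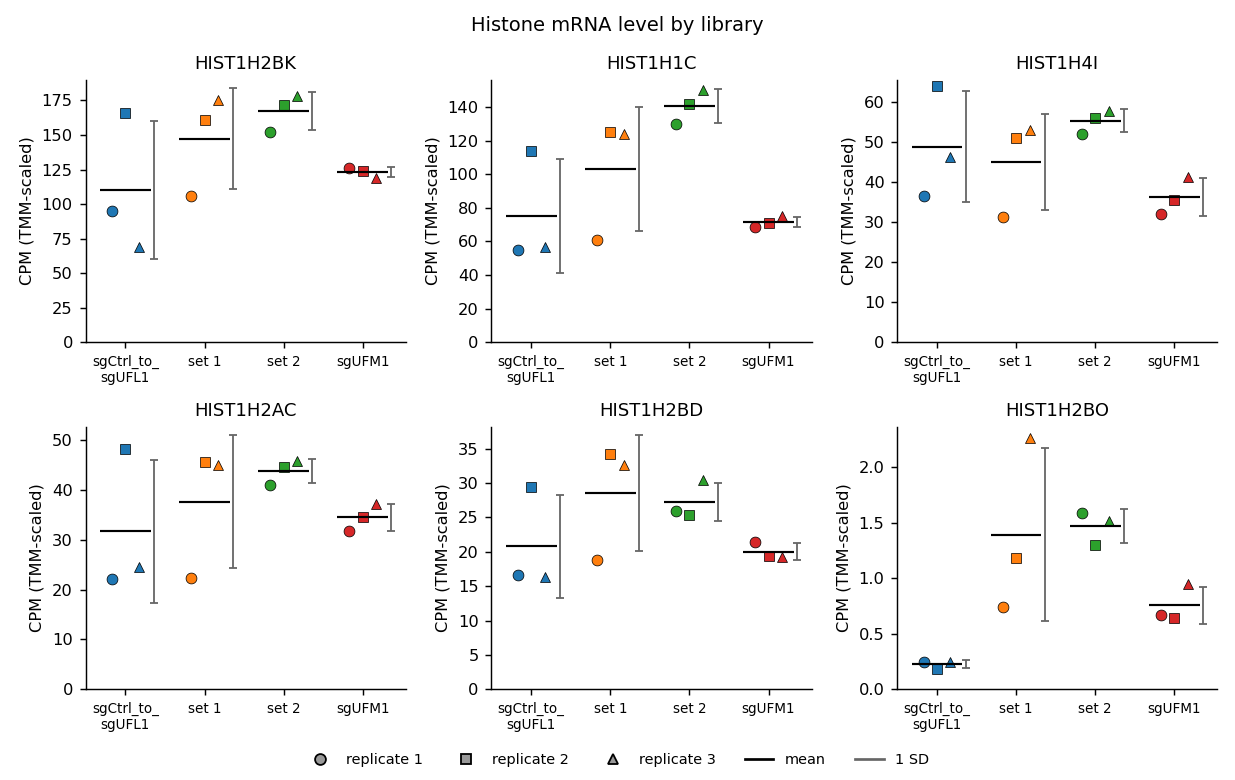
CPM of the 5 most abundant members and of HIST1H2BO in each library (symbols, by replicate number), with the mean of each group of 3 (black line) and 1 SD (grey bar). In the first 5 panels replicate 2 of sgCtrl_to_sgUFL1 is the highest and replicate 1 of set 1 the lowest of its group, whereas HIST1H2BO is low in all 3 sgCtrl_to_sgUFL1 libraries.

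The other expressed members were low. Among H2B genes, HIST1H2BJ ranged from 2.48 to 8.69 CPM, HIST2H2BE from 2.34 to 5.97, HIST1H2BE from 0.875 to 2.67 and HIST2H2BF from 0.806 to 2.45. Among H4 genes HIST1H4H ranged from 2.51 to 7.04 CPM and HIST4H4 from 0.258 to 1.15. The second expressed H1 gene, HIST1H1E, ranged from 0.793 to 4.31 CPM, and the other 2 expressed H2A genes, HIST1H2AG and HIST2H2AC, from 1.52 to 3.10 and from 0.551 to 1.77. None of the 3 expressed H3 genes exceeded 2.47 CPM: HIST1H3H reached that value, HIST1H3B 2.07 and HIST1H3C 1.83. HIST2H4B had counts of 0, 28 and 1 in sgCtrl_to_sgUFL1, 13, 16 and 1 in set 1, 2, 1 and 1 in set 2, and 6, 9 and 1 in sgUFM1. Since 97.1% of its 75-base stretches are shared with HIST2H4A, HIST2H3A or HIST2H3C, its value is uncertain.

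In 2 groups a single library differed from the other 2 in many members. A library was taken to stand apart for a gene when it lay at least 1.5-fold beyond the nearer of the other 2 of its group. The second library of sgCtrl_to_sgUFL1 stood above in 10 of the 21 expressed members, against 4.54% of 15985 genes, and below in 1, against 8.19%. The first library of set 1 stood below in 13 of the 21, against 5.23% of genes, and above in none, against 7.84%. For the 5 abundant genes the highest library of a group exceeded the lowest by 1.76- to 2.4-fold in sgCtrl_to_sgUFL1 and by 1.65- to 2.06-fold in set 1, but by 1.11- to 1.2-fold in set 2 and 1.06- to 1.29-fold in sgUFM1. Results that rest on either library are given with and without it.

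Whether the members differed among the 4 groups at all was asked first, since that test does not need the names of the groups. It called 3 of the 21 members tested at an adjusted p under 0.05, against 41.5% of 15821 genes. They were HIST1H2BO (adjusted p = 0.0027), HIST1H1C (0.017) and HIST1H2BE (0.023), and 4 members had an unadjusted p under 0.05. The share of all genes at that unadjusted p is not given here or below, so such counts are not read further. In the comparisons of 2 groups that follow, the filter on low counts left out 1 or 2 of the 21, always among HIST2H4B, HIST1H3B and HIST4H4. The members' share in the test of 4 groups was 14.3%, below that of all genes. HIST1H2BO kept its call in the 20 alternatives to this test, whereas HIST1H1C lost its call in 3 and HIST1H2BE in 5. HIST1H2BO had only 4, 3 and 4 counts in sgCtrl_to_sgUFL1, so it passed the filter on low counts through the groups where it is higher. With offsets that remove a trend of each library on GC content and gene length, HIST1H1C had an adjusted p of 0.15, and 2 members were called, against 20.3% of genes. Without the second library of set 2 the adjusted p was 0.056 for HIST1H1C and 0.055 for HIST1H2BE. It was 0.064 for HIST1H1C without the third of set 2, and 0.069 for HIST1H2BE without the first. HIST1H2BE also lost its call with no filter (0.090) and without the second (0.054) or the third (0.066) library of sgCtrl_to_sgUFL1. Without the first library of sgCtrl_to_sgUFL1 the test called 5 members, against 38.4% of genes. Without the second it called 9 members, against 48.4%. In both cases 1 of them was HIST1H2AI, which is not among the 21 expressed members. Without the first library of set 1 it called 7, against 47.6% of genes.

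In the comparison of sgUFM1 with set 2, its own controls under the names of the count table, members of the types H1, H2A, H2B and H4 were lower in sgUFM1. Of 20 members tested 8 fell and none rose, against 18.5% of 15083 genes that fell and 19.3% that rose. The median log2 fold change of the 20 members was -0.38, against 0.011 for all genes tested. HIST1H1C fell by 0.96 on the log2 scale (SE 0.07, adjusted p = 6e-09), HIST1H4I by 0.60 (SE 0.09, adjusted p = 4.2e-05) and HIST1H2BK by 0.44 (SE 0.07, adjusted p = 5.9e-05). By type, 1 of 2 H1 genes, 1 of 3 H2A genes, 4 of 9 H2B genes and 2 of 3 H4 genes fell, and none of the 3 H3 genes passed the threshold.

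The other members that fell were HIST1H2BD, by 0.43 (adjusted p = 0.0022), HIST1H2AC, by 0.33 (adjusted p = 0.0047), HIST1H4H, by 0.68 (adjusted p = 0.012), HIST1H2BJ, by 0.47 (adjusted p = 0.038), and HIST1H2BO, by 0.94 (adjusted p = 0.049). In each of the 8 genes all 3 sgUFM1 libraries lay below all 3 of set 2. The 8 were called from these same libraries, so this separation is not a further result. The share of all genes so separated is not given here. HIST1H2BE, which was not called, was separated the other way, with means of 1.72 CPM in sgUFM1 and 1.11 CPM in set 2. Values on the positive side that did not pass were 0.64 for HIST1H2BE (SE 0.33, adjusted p = 0.13), 0.57 for HIST1H1E (SE 0.34, adjusted p = 0.2) and 0.36 for HIST2H2BE (SE 0.20, adjusted p = 0.17). DESeq2 called 6 members lower, against 17.8% of genes, without HIST1H2BJ (adjusted p = 0.056) and HIST1H2BO (adjusted p = 0.093). Without the second library of set 2, 5 members fell, against 13.8% of genes, and without the first of sgUFM1 5 fell, against 17.6%. In both cases HIST1H4H, HIST1H2BJ and HIST1H2BO lost their calls. With the GC and length offsets, 5 members fell and HIST1H1E rose (0.88, adjusted p = 0.049), against 16.7% and 16.1% of genes, and HIST1H2BK, of which 61.2% of the model is G or C, stood at -0.09 (adjusted p = 0.19). In a single fit over all 12 libraries, which takes in the spread of the other groups, 2 members fell, HIST1H1C (-0.97, adjusted p = 0.017) and HIST1H4I (-0.61, adjusted p = 0.042), against 9.65% of genes.

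Sums of markers of other cells differed between the same groups. The summed level of the leukocyte, endothelial and fibroblast markers was 17.4 to 18.4 CPM in set 2 and 14.2 to 14.5 CPM in sgUFM1. Of these 10 genes 3 could be tested, and 1 fell, KDR, an endothelial receptor, by 0.98 (adjusted p = 0.00093). CD14 stood at -0.42 (adjusted p = 0.17) and PDGFRB, with the opposite sign, at 0.12 (adjusted p = 0.54). The sum of the luminal and epithelial markers was 79.3 to 86.7 CPM in set 2 and 66.9 to 69.9 CPM in sgUFM1. Of 4 tested 1 fell, ERBB2, by 0.30 (adjusted p = 0.0044). EPCAM stood at -0.20 (adjusted p = 0.27), PGR at -0.01 (adjusted p = 0.99) and GATA3, with the opposite sign, at 0.20 (adjusted p = 0.47). Of all genes, 18.5% fell in this comparison. The part of these markers in the histone result was not tested.

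When sgUFM1 was set against set 1, its controls under the names of the FPKM table, none of 19 members tested passed, against 4.57% of 14977 genes that rose and 5.15% that fell. At an unadjusted p under 0.05 there were 3. DESeq2 called 0 members, against 826 of 14977 genes that rose and 945 that fell. It gave an adjusted p to 13811 of these genes. Whether all members were among the genes with an adjusted p from DESeq2 is not given here or below. The members' median log2 fold change was -0.36, against -0.006 for all genes. HIST1H2BD stood at -0.51 (SE 0.19, adjusted p = 0.11), HIST1H1C at -0.53 (SE 0.21, adjusted p = 0.13) and HIST1H4H at -0.75 (SE 0.33, adjusted p = 0.18). Without the first library of set 1, 7 members fell, against 14.6% of genes, with set 1 represented by 2 libraries. They were HIST1H1C (-0.80, adjusted p = 1.2e-08), HIST1H2BD (-0.74), HIST1H2BK (-0.45), HIST1H4I (-0.52), HIST1H4H (-1.07), HIST1H2AC (-0.39) and HIST1H2BJ (-0.56). Without the second library of set 1, 1 member passed, HIST1H2AI (-3.23, adjusted p = 0.035), against 2.83% of genes that fell. This gene is under the expression rule, and its call rests on 11 and 16 counts in the 2 remaining libraries of set 1 against 0, 2 and 2 in sgUFM1. The comparisons of sgUFM1 with the 2 sets share the sgUFM1 libraries and are not independent.

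Between sgUFM1 and sgCtrl_to_sgUFL1, the groups whose names both tables give alike, none of 19 members passed, against 5.57% of 15035 genes that rose and 4.43% that fell. There were 3 at an unadjusted p under 0.05. DESeq2 called 0 members, against 1102 of 15035 genes that rose and 964 that fell. It gave an adjusted p to 14157 of these genes. The median was 0.10 for the members and -0.004 for all genes. HIST1H2BO stood at 1.72 (SE 0.52, adjusted p = 0.054), HIST1H1E at 0.83 (SE 0.38, adjusted p = 0.17) and HIST1H4I at -0.43 (SE 0.18, adjusted p = 0.14). For HIST1H2BO these are 4, 3 and 4 counts in sgCtrl_to_sgUFL1 against 11, 10 and 15 in sgUFM1. It passed the filter on low counts through sgUFM1, where it is higher. HIST1H1C stood at -0.07 (SE 0.22), near 0. Without the second control library 5 members rose, against 14.2% of genes: HIST1H1C by 0.36 (adjusted p = 0.019), HIST1H2AC by 0.56, HIST1H2BK by 0.58, HIST1H2BJ by 0.79 and HIST2H2BE by 0.99. The sign for HIST1H1C against these controls therefore turned with 1 library.

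Set 2 against sgCtrl_to_sgUFL1 compares controls with controls under the names of the count table, and sgUFL1 with its own controls under those of the FPKM table. Of 20 members 2 rose and 1 fell, against 17.4% of 15175 genes that rose and 18.4% that fell. DESeq2 gave the same counts of members, against 2764 genes that rose and 2730 that fell. HIST1H2BO rose by 2.65 on the log2 scale (SE 0.46, adjusted p = 0.0019), from 0.242, 0.183 and 0.248 CPM to 1.59, 1.30 and 1.52 CPM. These levels are 4, 3 and 4 counts in sgCtrl_to_sgUFL1 against 29, 23 and 24 in set 2, so the gene passed the filter on low counts through set 2, where it is high. HIST1H1C rose by 0.88 (SE 0.22, adjusted p = 0.0087). HIST1H2BE, an H2B gene of the same cluster, fell by 1.16 (SE 0.33, adjusted p = 0.016), from 2.12, 2.56 and 2.67 to 0.875, 1.19 and 1.27 CPM, and an exon of it overlaps AL353759.1 on the other strand, whose reads cannot be told apart without strand.

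The median of the 20 members in that comparison was 0.24, against -0.026 for all genes, and HIST1H2BK stood at 0.59 (SE 0.23, adjusted p = 0.057). Without the second library of sgCtrl_to_sgUFL1, 8 members rose and 1 fell, against 22.1% and 22.9% of genes. They included HIST1H1C at 1.32 (adjusted p = 8.2e-06), HIST1H2BK at 1.01, HIST1H2AC at 0.88, HIST1H2BJ at 1.26 and HIST1H2BD at 0.71. HIST1H1C lost its call with the GC and length offsets (0.40, adjusted p = 0.2), with these and the replicate number as a block (0.45, adjusted p = 0.077) and without the first library of sgCtrl_to_sgUFL1 (0.72, adjusted p = 0.055). HIST1H2BE lost its call with block and offsets together (-1.16, adjusted p = 0.058), without the third library of sgCtrl_to_sgUFL1 (-1.08, adjusted p = 0.051) and without the first (-0.99, adjusted p = 0.063) or the second (-1.21, adjusted p = 0.055) of set 2.

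Set 1 against sgCtrl_to_sgUFL1 is sgUFL1 with its own controls under the names of the count table. No member of 20 passed, against 1.08% of 14996 genes that rose and 0.0200% that fell. At an unadjusted p under 0.05 there were 2. DESeq2 called 0 members, against 1303 of 14996 genes that rose and 525 that fell. It gave an adjusted p to 11794 of these genes. The members' median was 0.27 and that of all genes -0.008. HIST1H2BO stood at 2.60 (SE 0.57, adjusted p = 0.055), with all 3 libraries of set 1, at 0.740, 1.18 and 2.26 CPM, above the controls. These are 12, 18 and 35 counts against the 4, 3 and 4 of the controls, and here too the gene passed the filter through the group where it is high. Without the second control library 5 members rose, against 10.6% of genes: HIST1H2BO (2.49), HIST1H2BJ (1.25), HIST1H1C (0.91), HIST1H2BK (0.86) and HIST1H2BD (0.81), each at an adjusted p between 0.021 and 0.038. Without the first library of set 1 only HIST1H2BO passed (2.91, adjusted p = 0.043), against 2.37% of genes that rose.

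Set 1 against set 2 gave no call among 20 members, against 0.705% of 15033 genes that rose and 1.49% that fell, with 1 member at an unadjusted p under 0.05. DESeq2 called 0 members, against 286 genes that rose and 474 that fell. It gave an adjusted p to 13572 of the 15033 genes. The members' median was -0.07 and that of all genes 0.007. HIST4H4 stood at -1.13 (SE 0.45, adjusted p = 0.19) and HIST1H1C at -0.45 (SE 0.21, adjusted p = 0.26). Comparisons that use sgCtrl_to_sgUFL1 share those 3 libraries, and those that use set 1 or set 2 share theirs.

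**Figure D4:**
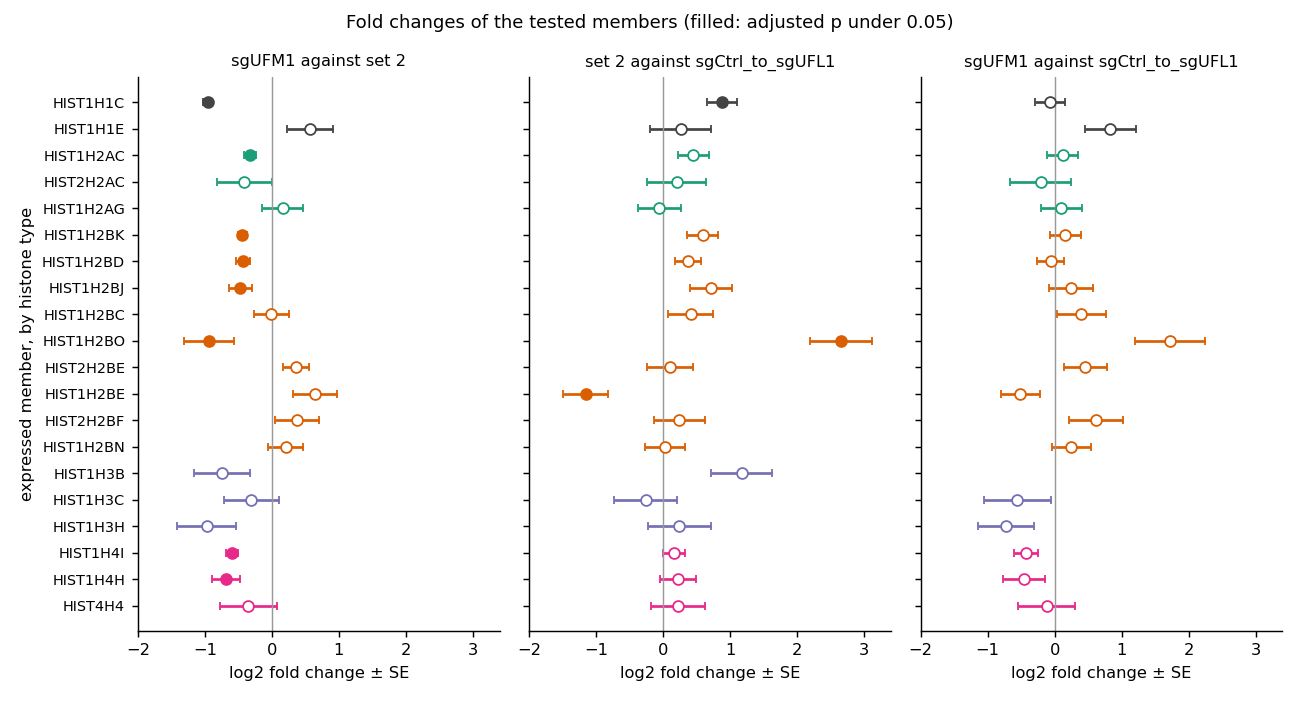
Log2 fold change (point) and its standard error (bar) of each tested member in 3 comparisons, coloured by histone type from H1 at the top to H4 at the bottom, with filled points for an adjusted p under 0.05. There are 8 points filled on the left of 0 for sgUFM1 against set 2, 3 are filled for set 2 against sgCtrl_to_sgUFL1, and none is filled for sgUFM1 against sgCtrl_to_sgUFL1.

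Genes that make, process and degrade histone mRNA did not move in 1 direction. Of 34 listed genes, 9 rose and 8 fell in sgUFM1 against set 2, and 5 rose and 9 fell in set 2 against sgCtrl_to_sgUFL1, while 0 rose and 1 fell in sgUFM1 against sgCtrl_to_sgUFL1. Of all genes, 19.3% rose and 18.5% fell in the first, 17.4% and 18.4% in the second, and 5.57% and 4.43% in the third. The list's median log2 fold change was 0.01, -0.07 and -0.06 in these comparisons. SLBP stood at 0.06 in sgUFM1 against set 2 (SE 0.07, adjusted p = 0.53), with group means from 96.3 to 106 CPM. NPAT, a coactivator of histone gene transcription, rose by 0.48 in the same comparison (adjusted p = 0.0011), opposite in sign to HIST1H1C, and fell by 0.81 in set 2 against sgCtrl_to_sgUFL1 (adjusted p = 0.0028). E2F1, which drives S phase entry, fell by 0.36 (adjusted p = 0.001), UPF1, a helicase of mRNA decay, by 0.34 (adjusted p = 0.00062), and MIF4GD, a partner of SLBP, by 0.30 (adjusted p = 0.0087) in sgUFM1 against set 2.

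Of 48 S phase genes, 14 rose and 7 fell in sgUFM1 against set 2 (median 0.03), and 6 rose and 16 fell in set 2 against sgCtrl_to_sgUFL1 (median -0.20). Of all genes, 19.3% rose and 18.5% fell in the first comparison, and 17.4% and 18.4% in the second. RRM2, a subunit of ribonucleotide reductase, rose by 0.61 in the first (adjusted p = 8.4e-07), where HIST1H1C fell, and CDT1, a licensing factor for replication, fell by 0.30 (adjusted p = 0.0025). Summed over the list, S phase genes were at 5154, 5830 and 5292 CPM in sgCtrl_to_sgUFL1, 5074, 5863 and 5878 in set 1, 5081, 5411 and 5287 in set 2, and 5387, 5338 and 5515 in sgUFM1. The second library of sgCtrl_to_sgUFL1 was the highest and the first of set 1 the lowest of its group here too. This order was not particular to S phase genes. It also held for the sums of histone chaperones, of replication-independent variants and of genes that make, process and degrade histone mRNA. Sums of the markers listed as high or as low in this line showed it too. For the high ones these were 2499, 3131 and 2590 CPM in sgCtrl_to_sgUFL1, and 2398, 2948 and 2978 CPM in set 1. The order did not hold for the markers of other cells or the noncoding RNAs without a poly(A) tail. The part of cell cycle composition in the members' levels was not tested.

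Replication-independent variants, which are made throughout the cell cycle, had 10 of 17 genes tested. Of these 1 rose and 3 fell in sgUFM1 against set 2, and 4 rose and none fell in set 2 against sgCtrl_to_sgUFL1, with medians of -0.12 and 0.15. Of all genes, 19.3% rose and 18.5% fell in the first comparison, and 17.4% and 18.4% in the second. H2AFJ, an H2A variant, fell by 0.91 in the first (adjusted p = 2.5e-07) and rose by 0.92 in the second (adjusted p = 0.0021). H1FX, a linker histone variant, fell by 0.47 (adjusted p = 0.00038) in the first and rose by 1.08 (adjusted p = 0.0006) in the second. H2AFX, the variant whose mRNA also holds the stem-loop consensus, stood at -0.17 (adjusted p = 0.059) in the first and rose by 0.54 (adjusted p = 0.033) in the second. Of 27 histone chaperone genes, which carry histones to and from DNA, 7 rose and 2 fell in sgUFM1 against set 2, and of 26 tested 3 rose and 7 fell in set 2 against sgCtrl_to_sgUFL1, against the same shares of all genes. NAP1L1, a carrier of H2A and H2B, rose by 0.16 (adjusted p = 0.046) and fell by 0.69 (adjusted p = 0.002) in these comparisons, with the sign opposite to that of HIST1H1C in each. ANP32E, which removes an H2A variant from chromatin, rose by 0.39 (adjusted p = 0.00016) and fell by 0.77 (adjusted p = 0.0017).

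Noncoding RNAs without a poly(A) tail were counted as a measure of how libraries carried such RNA. Of 21 listed, 11 had 0 counts in all libraries, RN7SK, RMRP, RPPH1 and RN7SL1 among them, and the sum was mostly RN7SL2, the RNA of the signal recognition particle. RN7SL2 was at 48.5, 20.3 and 13.3 CPM in sgCtrl_to_sgUFL1, 66.5, 85.0 and 46.6 in set 1, 226, 184 and 281 in set 2, and 130, 60.9 and 39.7 in sgUFM1. It fell by 1.57 in sgUFM1 against set 2 (SE 0.24, adjusted p = 4.3e-05) and rose by 3.06 in set 2 against sgCtrl_to_sgUFL1 (adjusted p = 0.00036), the same signs as HIST1H1C. Of all genes, 18.5% fell in the first comparison and 17.4% rose in the second. SNORA73B, the other RNA of the list that was tested there, stood at -0.33 (adjusted p = 0.59) and -0.19 (adjusted p = 0.66). The library of sgCtrl_to_sgUFL1 with the highest histone sum was not the one with the highest RN7SL2. The part of RNA capture in the histone results was not tested.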

How the data were processed

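RNA was extracted with TRIzol and made into total RNA libraries, per the labels' protocols. One table deposited by the authors holds read counts, in whole numbers, for each gene, and another deposited table holds FPKM values of those libraries. The submitters' processing notes name fastp 0.20.1, STAR 2.7.7a, featureCounts 2.0.0 and GRCh38. The settings for strand and for reads with several matches are not given in these notes or in the labels. FPKM columns, multiplied by gene length, were matched to count columns over 9901 genes, and were otherwise not used. No group was assigned from measured values.

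Counts were tested in edgeR 4.0.16 (R 4.3.3) with filterByExpr, TMM scaling and the quasi-likelihood test, on the 6 libraries of each comparison, with Benjamini-Hochberg adjustment over all genes tested and a threshold of 0.05. The F test used all 12 libraries. Standard errors were derived from the fold change and its F statistic. The procedure was tested on simulated data. Replicates within a group differed by more than sampling noise.

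Named members are the 3 highest per kilobase of each type, up to 4 per direction with the smallest p among those called, the expressed HIST2 and HIST4 members, and 3 genes per list. HIST1H2AI, HIST1H4C, HIST1H2BC, the partners in gene pairs and members at or next to the stretch at 0 were named after their values were seen. Members and lists were chosen with earlier results of these data known. Alternatives tried were scaling by RLE or by the upper quartile, no filter, 10 counts in 3 libraries, DESeq2 1.42.0, offsets for GC content and length (lowess, span 0.3), a replicate block, 1 fit over 12 libraries and each library left out.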

Additional observations from a re-analysis of the deposited data

How the results depend on the processing

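The fold changes of called members gave 165 values over the alternatives, of which none changed sign, 127 kept their call and 38 lost it. Their adjusted p-values in the test of 4 groups, which has no direction, gave 60, of which 52 kept their call and 8 lost it. HIST1H1C and HIST1H4I in sgUFM1 against set 2 kept theirs in all 15 alternatives, whereas HIST1H2BO and HIST1H2BJ in sgUFM1 against set 2 lost theirs in 13 and 10. Counts of members called moved as follows. In sgUFM1 against set 2 the 8 lower members became 5 with GC and length offsets or with these and the replicate block, 2 in 1 fit over 12 libraries, 6 with DESeq2 or the block, 7 with no filter or with 10 counts asked in 3 of 12 libraries, and 5 to 7 with a library left out, and the count of higher members went from 0 to 1 with the offsets, with or without the block. All genes that fell there went from 2791 of 15083 to 2514 with the offsets, 2469 with these and the block, and 2416 with the block. They were 2679 with DESeq2, 1526 of 15821 in 1 fit and 2772 of 29994 with no filter. With 10 counts asked they were 2785 of 15985, and with a library left out 2068 to 3328. All genes that rose went from 2906 to 2426 with the offsets and 2382 with offsets and block. In set 2 against sgCtrl_to_sgUFL1 the 2 higher members became 6 with the block, 5 with no filter, 3 with upper-quartile scaling or in 1 fit, 1 with offsets and 1 to 8 with a library left out, and the 1 lower member became 2 with no filter, 0 with block and offsets, and 0 to 1 with a library left out. All genes that rose there went from 2641 of 15175 to 2856 with the block, 2974 with upper-quartile scaling and 599 with offsets. They were 2785 of 30071 with no filter, 3205 of 15821 in 1 fit and 1378 to 3430 with a library left out. All genes that fell went from 2797 to 2627 with no filter, 484 with block and offsets, and 1108 to 3555 with a library left out. In set 1 against sgCtrl_to_sgUFL1 the higher count of 0 became 3 with no filter, 1 in the fit over 12 libraries and 0 to 5 with a library left out. All genes that rose there went from 162 of 14996 to 1508 of 29654, 1992 of 15821 and 0 to 1643, in the same order. In sgUFM1 against sgCtrl_to_sgUFL1 the higher count of 0 became 1 in the fit over 12 libraries and 0 to 5 with a library left out, and the lower count became 1 with no filter. All genes that rose there went from 837 of 15035 to 1348 of 15821 and 165 to 2195, and those that fell from 666 to 1015 of 29713. In sgUFM1 against set 1 the lower count of 0 became 4 with no filter and 0 to 7 with a library left out. All genes that fell there went from 771 of 14977 to 1132 of 29663 and 56 to 2242. In set 1 against set 2 no filter gave 1 higher and 1 lower, against 447 and 669 of 30005 genes. The test of 4 groups gave 10 with no filter, 2 with offsets, 4 with the block, with or without offsets, and 2 to 9 with a library left out. Of all genes it called 6956 of 32805 with no filter and 3204 of 15821 with offsets. It called 7004 with the block, 3666 with block and offsets, and 4683 to 7854 with a library left out. With no filter more genes were tested, with a library left out fewer samples were, and the cause of the other shifts was not tested.

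Same-numbered libraries of different groups correlated at -0.212 to 0.378 over 18 pairs, and others at -0.567 to 0.37 over 36, so the numbers were not taken to pair the libraries. With the replicate block, 6 members fell in sgUFM1 against set 2, as did 2416 of 15083 genes, and in set 2 against sgCtrl_to_sgUFL1 6 members rose, as did 2856 of 15175 genes. Members of a few CPM are limited by depth: HIST1H2BO had 188 counts in all.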
